A study of Mus musculus with 18 samples.

Results

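The 9 genes described here encode transcription factors that set the identity of microglia, the resident macrophages of the brain, or that accompany their activation: Spi1, Irf8, Sall1, Mef2a, Mef2c, Runx1, Cebpa, Bhlhe41 and Mitf. They were chosen by symbol, and all 9 were found among the 55536 genes of the count table. RNA was sequenced from 18 samples of striatal microglia of adult mice on a C57BL/6 background (C57Bl6/J in the study's methods), enriched with magnetic beads against CD11b, a surface integrin of microglia and other myeloid cells. The groups were WT (5 samples), Tyrobp-KO (3 samples, both copies of Tyrobp deleted in every cell of the mouse), Q175 (5 samples, heterozygous for a human HTT exon 1 with an expanded CAG repeat knocked into the mouse Htt gene, a model of Huntington's disease) and Q175;Tyrobp-KO (5 samples carrying both alleles). Tyrobp encodes the adapter protein DAP12, which passes on signals from TREM2 and other microglial receptors, and neither allele is restricted to microglia. By the labels, 1 WT, 2 Tyrobp-KO, 4 Q175 and 2 Q175;Tyrobp-KO samples were from females and the rest from males. The labels do not state whether samples within a group came from separate mice, so p-values measure the spread between these samples.

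PU.1, the product of Spi1, and IRF8 bind together at enhancers of macrophage genes and are both needed for microglia to form. RUNX1 and C/EBPα act beside PU.1 in the development of the myeloid lineage, and SALL1, a zinc finger repressor found in microglia but not in most other macrophages, holds them in their resting state. MEF2A and MEF2C are MADS-box factors that bind microglial enhancers, BHLHE41 is a basic helix-loop-helix repressor, and MITF, a relative of TFEB and TFE3, drives lysosomal genes and is linked to the disease-associated state of microglia.

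On build GRCm38, the GENCODE annotation places Spi1 at chr2:91082390-91115756, Irf8 at chr8:120736358-120756694, Mef2c at chr13:83504034-83667080, Cebpa at chr7:35119293-35121928 and Mitf at chr6:97807052-98021349, all on the plus strand. Sall1 lies at chr8:89027235-89044162, Mef2a at chr7:67231163-67372858, Runx1 at chr16:92601466-92826149 and Bhlhe41 at chr6:145858243-145865558, on the minus strand. The genes differ in base composition, which is given first because libraries differed in the level of GC-rich transcripts. The longest transcripts of Cebpa and Spi1 were 62.6% and 58.9% G or C, higher than in 98.8% and 93.5% of the 13507 genes with at least 1 CPM (counts scaled for depth) in every sample. Those of Mef2c, Mef2a and Mitf were 40.8%, 42.0% and 43.4% G or C, at percentiles 10.6, 15.1 and 20.8. Irf8, Sall1, Bhlhe41 and Runx1 lay between, at 51.7%, 51.6%, 47.5% and 46.4%. RefSeq promoters on build GRCm38.p6 were matched for 8 of the 9 genes, with 16 start sites in all, and Spi1 was not matched. The 250 bases before the first start site are shown for Irf8 and Cebpa, which moved together across libraries, and for Mef2c, whose correlations with those factors did not pass the test. All 3 are on the plus strand, at chr8:120736108-120736357, chr7:35119043-35119292 and chr13:83503784-83504033, and capitals mark matches to the motifs listed after them.
Irf8: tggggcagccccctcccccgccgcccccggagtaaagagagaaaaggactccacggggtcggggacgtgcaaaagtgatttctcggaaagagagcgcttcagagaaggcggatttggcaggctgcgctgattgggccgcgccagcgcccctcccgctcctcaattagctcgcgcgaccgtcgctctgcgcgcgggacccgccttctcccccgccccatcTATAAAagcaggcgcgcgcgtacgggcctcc
Cebpa: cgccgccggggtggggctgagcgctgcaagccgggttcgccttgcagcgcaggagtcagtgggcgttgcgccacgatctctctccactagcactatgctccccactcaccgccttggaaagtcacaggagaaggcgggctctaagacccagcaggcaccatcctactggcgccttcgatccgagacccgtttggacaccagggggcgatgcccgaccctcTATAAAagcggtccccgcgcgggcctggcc
Mef2c: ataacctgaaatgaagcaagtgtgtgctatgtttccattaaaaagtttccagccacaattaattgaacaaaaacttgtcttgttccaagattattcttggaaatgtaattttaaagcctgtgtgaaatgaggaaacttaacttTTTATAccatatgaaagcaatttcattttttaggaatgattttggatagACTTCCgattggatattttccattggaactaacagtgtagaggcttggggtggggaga
The windows of Irf8 and Cebpa were 67.2% and 66.4% G or C, and that of Mef2c 33.6%, lower than in all but 3.52% of the 32851 promoters. Both strands were searched for GGAAGT (the core bound by ETS factors such as PU.1, in 19.7% of all promoters), CACGTG (the E-box of MITF and of basic helix-loop-helix factors, 6.02%), TGTGGT (RUNX, 14%), CTA and TAG with 4 bases between them (MEF2, 3.2%), 2 copies of GAAA with 2 bases between them (IRF, 2.98%), TTGCNNAA (C/EBP, 9.56%) and TATAAA (the TATA box, 12.4%). In these windows Irf8 and Cebpa each held TATAAA near the start, whereas Mef2c held GGAAGT and TATAAA, both on the minus strand. Of the other start sites, CACGTG was found before Bhlhe41 and the first Runx1 start, and 7 of the 16 windows held none of these motifs. A match is a description of the letters and not of binding.

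Total counts per library were between 11260410 and 29771983. Tyrobp checked the labels: its normalized count (TMM-scaled CPM times the mean library size) was between 3599 and 8721 in the 10 samples with the gene and between 182 and 392 in the 8 without it. All 20 microglia markers had a count in every library. Their summed level had its lowest value, 352191, in Q175 replicate 4 and its highest, 617114, in Tyrobp-KO replicate 19. All 15 astrocyte markers were also counted in every library, with a summed level of 122146 in Q175 replicate 14, 84843 in Tyrobp-KO replicate 20, and 12518 to 67663 in the others. Those 2 libraries also had the highest shares of mitochondrially encoded counts, 7.25% and 6.12%, against 0.62% to 2.83% elsewhere. Of 8 markers of macrophages at the brain's borders, which also use several of these factors, 6 had a count in every library, with a summed level of 3975 to 11364. Most of that sum was Stab1 (3676 to 11204), whereas Lyve1 had at most 12 counts and Cd163 at most 39. The part of other cell types in the factors' levels was not tested. In enriched bulk samples, fewer microglia and less RNA per microglia cannot be told apart.

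Per kilobase of all annotated exons of a gene, Sall1 had the highest level of the 9 in every group, and Mitf the lowest. The place of Sall1 depends on the length used. All exons together cover 14681 bases in Mef2a and 15715 in Mef2c, but their longest transcripts have 5538 and 6277. For Sall1 both lengths are 5265. Before division by length, the mean normalized count in WT was 17970 for Mef2a, 10660 for Mef2c and 8438 for Sall1. In WT the mean RPKM (counts per kilobase of exon, scaled for depth) was 87.2 ± 51.1 for Sall1 (SD, n = 5), 66.6 ± 7.30 for Mef2a and 50.7 ± 28.6 for Cebpa. It was 40.8 ± 20.1 for Irf8, 36.9 ± 9.08 for Mef2c and 28.6 ± 14.4 for Spi1, then 18.4 ± 6.01 for Bhlhe41, 10.6 ± 5.09 for Runx1 and 9.76 ± 0.55 for Mitf. The order was similar in the other groups, where Mef2a and Cebpa held the next places after Sall1. In WT, neighbours in this order differed by less than the larger of both SDs, except Bhlhe41 and Runx1.

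Spi1, which encodes PU.1, gave 657, 1624, 718, 2298 and 1788 normalized counts in WT replicates 1, 2, 6, 7 and 8. In Tyrobp-KO replicates 15, 19 and 20 it gave 2033, 2132 and 1185, and in Q175 replicates 3, 4, 9, 14 and 17 it gave 1734, 624, 1519, 1083 and 1742. The Q175;Tyrobp-KO replicates 5, 11, 12, 13 and 16 had 1237, 1631, 2003, 1956 and 2000. WT replicates 1 and 6 and Q175 replicate 4 were the low libraries, and all 4 groups overlapped. Irf8, the partner of PU.1, followed the same libraries: 3132, 4873, 2559, 8509 and 7392 in WT, 5793, 5867 and 3083 in Tyrobp-KO, 5708, 2139, 5402, 4154 and 5056 in Q175, and 3728, 6187, 6312, 6723 and 6372 in Q175;Tyrobp-KO, in the same order of replicates. Its WT libraries alone spanned 3.33-fold.

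Sall1, the microglia-restricted repressor, spanned 3.26-fold within WT, with 4411, 5778, 4392, 13310 and 14301 normalized counts. Tyrobp-KO had 9507, 10461 and 4486, and Q175 had 8841, 3374, 10772, 5148 and 7539. In Q175;Tyrobp-KO the values were 6699, 11660, 10862, 12518 and 12342. Replicate 5 was the low library of that group, and WT replicates 7 and 8 were higher than any of its samples. Runx1, a regulator of myeloid development, had the same pattern: 1613, 1570, 1394, 3548 and 3602 in WT, 2009, 2440 and 1288 in Tyrobp-KO, 2320, 1177, 2880, 1360 and 1824 in Q175, and 1582, 3043, 2744, 3226 and 2914 in Q175;Tyrobp-KO.

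Cebpa, which encodes C/EBPα, had the widest span within WT, with 928, 3902, 1198, 3750 and 2504 normalized counts in WT, 4.2-fold from lowest to highest. It had 3406, 4773 and 2310 in Tyrobp-KO, 2780, 1011, 2026, 1946 and 3137 in Q175, and 2047, 2762, 3227, 3411 and 2560 in Q175;Tyrobp-KO. The highest library was Tyrobp-KO replicate 19, and its group had the highest mean, 3496 ± 1234 (SD, n = 3). Cebpa lies 4.7 Mb from Tyrobp on chromosome 7 and Mef2a 36.81 Mb from it. Bhlhe41, the helix-loop-helix repressor, was between 1558 and 3399 in WT, 2490 and 2750 in Tyrobp-KO, 1315 and 3034 in Q175, and 1907 and 2837 in Q175;Tyrobp-KO.

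The remaining 3 factors were steadier. Mef2c had 13307, 10247, 13380, 7601 and 8767 normalized counts in WT, so that WT replicates 1 and 6, low for Spi1 and Irf8, were high for Mef2c, and replicate 7, highest for both, was low. It had 11133, 11432 and 10543 in Tyrobp-KO, 7767, 9976, 8220, 8696 and 11801 in Q175, and 7730, 11222, 9249, 9284 and 8832 in Q175;Tyrobp-KO. Mef2a was between 15328 and 20265 in WT, 13173 and 23835 in Tyrobp-KO, 11559 and 20489 in Q175, and 14666 and 21288 in Q175;Tyrobp-KO. Mitf had 1143, 1069, 1124, 1031 and 1189 in WT, 1090, 954 and 636 in Tyrobp-KO, 1085, 913, 866, 893 and 1147 in Q175, and 862, 1118, 891, 975 and 1010 in Q175;Tyrobp-KO. Its WT samples lay within 1.15-fold, and Tyrobp-KO replicate 20 was the lowest library of all 18.

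**Figure D1:**
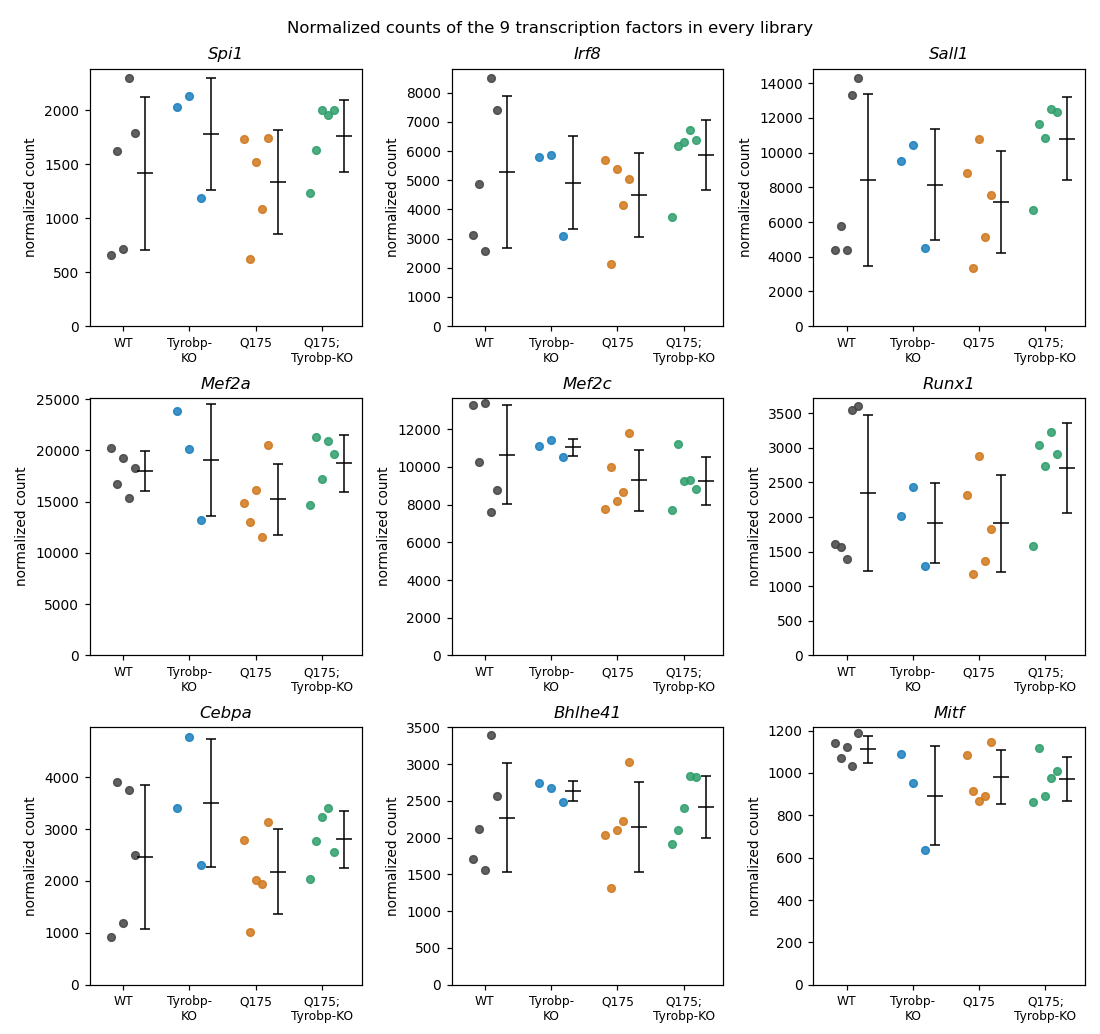
Normalized counts (vertical axes, starting at 0) of each of the 9 factors in the 18 libraries by group, with 1 point a library and the group mean and SD (n = 5, 3, 5 and 5) as a bar to the right. In all 9 panels the groups overlap, and in WT the points of Spi1, Irf8, Sall1, Runx1 and Cebpa spread more than 2.5-fold.

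With the group means of each gene put in order, 27 pairs of neighbours could be compared, and in 26 of them the difference was smaller than the larger of both SDs. The exception was Mitf, at 1111 ± 62.1 in WT and 980.8 ± 126.5 in Q175 (SD, n = 5 each), a difference of 130.5. No factor's groups were free of overlap in any pair of groups compared, which held for 1.09% of genes in Q175 against WT, 0.864% in Q175;Tyrobp-KO against Q175 and 4.48% in Tyrobp-KO against WT. Within groups, the SD of log2 CPM was 0.66 for Sall1 and Cebpa, 0.60 for Spi1, 0.58 for Irf8 and 0.54 for Runx1, above that of 79.8% to 87.9% of genes. It was 0.36 for Bhlhe41 and 0.28, 0.26 and 0.20 for Mef2a, Mef2c and Mitf, and the median over all genes was 0.34.

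Q175 was set against WT to ask whether the Huntington's disease allele altered these factors in microglia. All 9 had lower fitted levels in Q175, by little, but with counts scaled to the microglia markers Spi1 and Bhlhe41 were higher (0.03 each). With the non-microglial marker score as a term, Sall1, Runx1 and Spi1 were higher (0.22, 0.21 and 0.19) and the median of the 9 was -0.09. The astrocyte marker sum was 12518 to 22097 in WT and 22096 to 122146 in Q175, and the sum of ependymal and choroid plexus markers was 23931 and 25901 in Q175 replicates 3 and 4, and 81.3 to 7532 in all other libraries. Most of the latter sum at its highest was Ttr (up to 25076), whereas Kl was at most 520.6 and Foxj1 at most 213.4. Ccdc153, Tmem212 and Dynlrb2 had at most 10, 8 and 10 counts in any library. That score was made from astrocyte, neuron and oligodendrocyte markers, and the part of astrocytes in the differences was not tested beyond it. It holds no ependymal or choroid plexus markers, and the part of those cells was not tested. The log2 fold changes ran from -0.05 for Spi1 to -0.27 for Runx1, with a median of -0.17, and the median of all genes tested was -0.02. In edgeR's quasi-likelihood test at a false discovery rate of 0.1, 0 of the 9 factors and 0 of 18266 genes (0.0%) were called. None had an unadjusted p under 0.05, which 6.24% of all genes had (0.766% lower and 5.47% higher). DESeq2 called 234 of 18266 genes and none of the 9. The 95% intervals for Mef2a, log2 -0.65 to 0.23, and Mitf, -0.47 to 0.16, were among the narrower ones. For Sall1 the interval was -1.09 to 0.66 and for Cebpa -1.03 to 0.75, so that changes of 2-fold in the lower direction could not be told from none. By sample pairs, Mef2a and Mitf were each higher in Q175 in 6 of 25 pairs and the others in 8 to 11 of 25. For 5 of the 9 (Spi1, Irf8, Sall1, Cebpa and Bhlhe41) the sign depended on single libraries.

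Q175;Tyrobp-KO was set against Q175 to ask what loss of Tyrobp did in the disease model. Here 7 of the 9 had higher fitted levels (6 when scaled to the microglia markers, where Bhlhe41 was at -0.04), with a median of 0.36 on the log2 scale against -0.05 over all genes, and again none passed the test. Edges of the intervals came closest to 0 for Sall1 and Runx1. Sall1 was 1.51-fold in Q175;Tyrobp-KO relative to Q175 (log2 0.60, SE 0.29, adjusted p 0.533 by edgeR) and higher in 22 of 25 sample pairs. The difference for Runx1 was 0.50 (SE 0.26, adjusted p 0.533), with 21 of 25 pairs higher. Spi1 and Irf8 differed by 0.39 and 0.38, Cebpa by 0.36, Mef2a by 0.30 and Bhlhe41 by 0.17. Mef2c and Mitf showed almost no difference, -0.01 (95% interval -0.35 to 0.34) and -0.02 (-0.29 to 0.26). Of 18059 genes tested, 2 (0.0111%) were called. None of the 9 had an unadjusted p under 0.05, against 8.01% of all genes (4.56% lower and 3.45% higher), and the smallest was 0.0592 for Sall1. DESeq2 called 41 of 18059 genes and none of the 9. Its unadjusted p was under 0.05 for Sall1 alone of the 9, at 0.0417.

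Replicate 5 was the lowest Q175;Tyrobp-KO library for all 9 factors, and its microglia marker sum, 384499, was the lowest of its group. Without it the differences of Sall1, Runx1 and Irf8 were 0.73, 0.63 and 0.50, with adjusted p of 0.252, 0.252 and 0.279 by edgeR, and the median of the 9 was 0.45. Q175 replicate 4, with the lowest microglia marker sum of all libraries, bore on the comparison the other way. Without it the median of the 9 was 0.21, where it was 0.36 with all libraries, and over all single libraries left out the lowest differences were 0.42 for Sall1, 0.37 for Runx1 and 0.21 for Irf8. Scaling to the microglia markers instead of TMM gave 0.39, 0.26 and 0.18 for the same genes, and put the median of all genes at -0.30.

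Tyrobp-KO against WT asked for the effect of Tyrobp loss without the disease allele. Cebpa was fitted 1.49-fold higher (log2 0.58, SE 0.47, adjusted p 0.956 by edgeR) and Spi1 higher by 0.41 (SE 0.42). Bhlhe41, Mef2a and Mef2c differed by 0.28, 0.16 and 0.12, Sall1 and Irf8 by 0.03 and -0.03, and Runx1 and Mitf by -0.22 and -0.24. Scaled to the microglia markers, the median of all genes was -0.34 and 7 of the 9 factors were fitted lower, with Cebpa at 0.24 and Spi1 at 0.04. The test called 0 of the 9 and 4 of 18017 genes (0.0222%). No factor had an unadjusted p under 0.05, against 6.82% of all genes (3.15% lower and 3.66% higher). DESeq2 called 168 of 18017 genes and none of the 9. With 3 Tyrobp-KO samples the intervals were wide, for Cebpa from -0.46 to 1.62. Tyrobp-KO replicate 20, with the high astrocyte marker sum given above, was the lowest of its group for all 9. Leaving it out with Q175 replicate 14 raised the members' median difference from 0.12 to 0.30, still with none called.

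The interaction term, which compares the effect of Tyrobp loss in Q175 with that in WT, called 0 of the 9 and 0 of 18613 genes (0.0%). None of the 9 had an unadjusted p under 0.05, against 6.01% of genes (3.02% lower and 2.99% higher), and DESeq2 called 2 of 18613 genes and none of the 9. Its largest value was 0.79 for Runx1 (SE 0.48, adjusted p 0.716 by edgeR), followed by 0.65 for Sall1 and 0.49 for Irf8. The effects in WT and Q175 backgrounds, -0.22 and 0.50 for Runx1, were not shown to differ. Over both Htt genotypes, 8 of the 9 were fitted higher without Tyrobp and Mitf lower by 0.14, but scaled to the microglia markers 3 were higher and 6 lower. The largest differences were 0.43 for Cebpa (SE 0.26, adjusted p 0.683) and 0.37 for Spi1 (SE 0.24, adjusted p 0.706), both by edgeR, and 0 of the 9 were called against 30 of 18613 genes (0.161%). No unadjusted p was under 0.05, where 8.81% of genes had one (7.41% lower and 1.4% higher), and DESeq2 called 151 of 18613 genes and none of the 9. The 95% intervals with TMM scaling were -0.25 to 0.29 for Mef2c, -0.37 to 0.09 for Mitf and -0.09 to 0.50 for Mef2a. Scaled to the microglia markers, Mef2c was at -0.27 and Mitf at -0.43, both outside those intervals. The Q175 effect over both Tyrobp genotypes lay between -0.24 for Cebpa and 0.04 for Runx1. With counts scaled to the microglia markers, 7 of the 9 were fitted higher, where 2 were otherwise. Mef2c had the smallest p of the 9 (-0.22, SE 0.13, adjusted p 0.813 by edgeR), and 0 of the 9 and 0 of 18613 genes (0.0%) were called. An unadjusted p under 0.05 was found for none of the 9 but for 5.1% of genes (3.11% lower and 2.0% higher). DESeq2 called 1 of 18613 genes and none of the 9. All of these comparisons share samples and are not independent of each other.

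**Figure D2:**
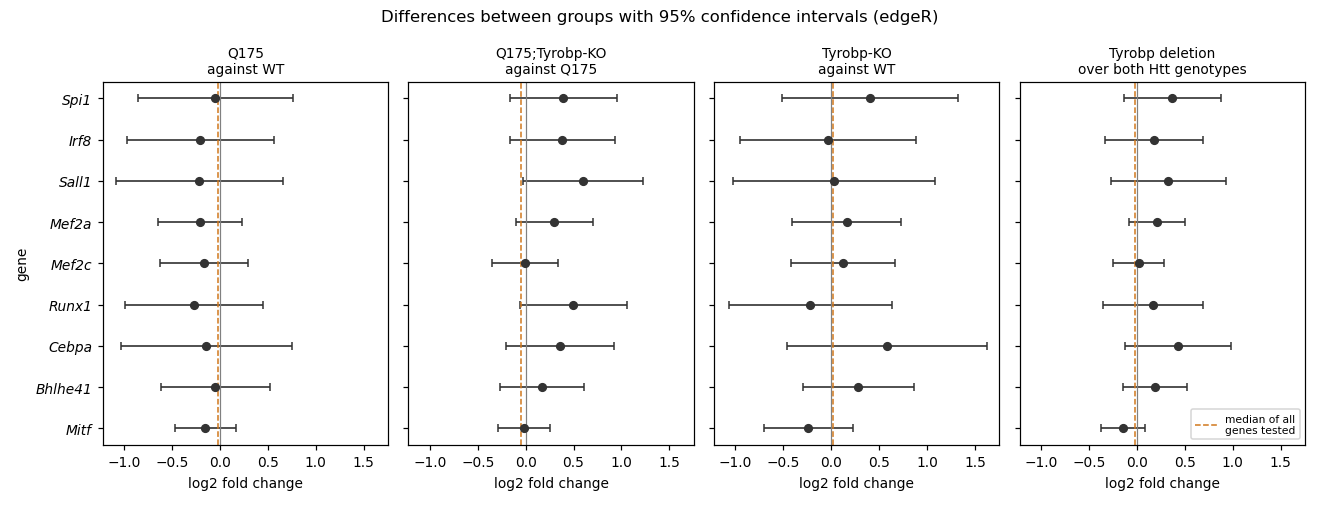
Log2 fold changes (horizontal axes) of the 9 factors in 4 comparisons, with points for the edgeR estimate, bars for 95% confidence intervals, a grey line at 0 and a dashed line at the median of all genes tested. Every interval includes 0, and that of Sall1 in Q175;Tyrobp-KO against Q175 reaches from -0.03 to 1.22.

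Libraries of the same genotype differed in these factors, and 6 of the factors did so together. The 6 were grouped by their values in these same libraries, so figures for them as a set describe the grouping and do not test it. How often other pairs of genes reach such correlations was not computed. Spi1, Irf8, Sall1, Runx1, Cebpa and Bhlhe41 were all below their own 18-library mean in WT replicates 1 and 6, Q175 replicates 4 and 14 and Q175;Tyrobp-KO replicate 5. All 6 were above it in WT replicates 7 and 8, Tyrobp-KO replicate 19 and Q175;Tyrobp-KO replicates 12, 13 and 16. In the remaining libraries they lay on both sides. In WT replicate 2, 3 of the 6 were below, with Cebpa at 0.685 and Sall1 at -0.457. The median deviation of the 6 was -1.2 on the log2 scale in Q175 replicate 4 and 0.70 in WT replicate 7. Over the 18 libraries, the 15 pairs among the 6 had Pearson's r of log2 CPM between 0.553 and 0.963, with permutation p adjusted over all 36 pairs of at most 0.0374. Spearman's rho ran from 0.467 to 0.975, and the adjusted permutation p was above 0.05 for Runx1 with Cebpa alone, at 0.104. After leaving out the 2 libraries farthest from the median of 1 gene of each pair, r stayed between 0.467 and 0.957, and for deviations from group means it was between 0.616 and 0.972.

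The closest pairs were Sall1 with Runx1 (r = 0.963, rho = 0.963), Irf8 with Sall1 (0.951 and 0.975), Spi1 with Cebpa (0.938 and 0.843) and Spi1 with Irf8 (0.928 and 0.866). Their adjusted permutation p for r was 6e-05, from 1e-05, the smallest that 100000 resamples can give. Mef2c had r between -0.444 and -0.254 to the 6, none under an adjusted permutation p of 0.05 (0.125 at the least), and rho between -0.418 and -0.0568. Without the 2 farthest libraries r was between -0.367 and 0.235, and positive with Cebpa (0.235) and Bhlhe41 (0.0834). Mef2a had r of 0.276 to 0.452 and Mitf of 0.0262 to 0.317 to the 6, also without an adjusted permutation p under 0.05. Mef2a and Mitf rose and fell together (r = 0.614, rho = 0.602, adjusted permutation p 0.0147 and 0.0255), and with deviations from group means r was 0.842. For Mef2a with Mef2c, r was 0.521 (adjusted permutation p 0.0565). The 18 libraries share a preparation method but not depth (11260410 to 29771983 counts), and the labels name no sequencing batch.

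**Figure D3:**
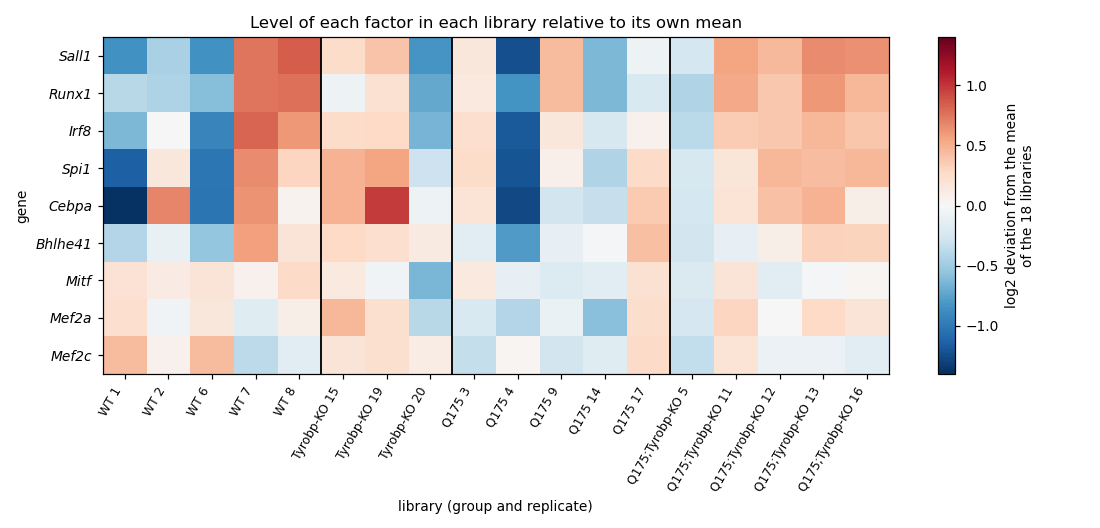
Deviation of each factor's log2 CPM from its own mean over the 18 libraries (colour, red above and blue below), with genes as rows and libraries as columns and black lines between the groups. The upper 6 rows, Sall1 to Bhlhe41, are on the same side of their means in many libraries but mixed in others, such as WT replicate 2. The row of Mef2c is red where they are blue in WT replicates 1 and 6.

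**Figure D4:**
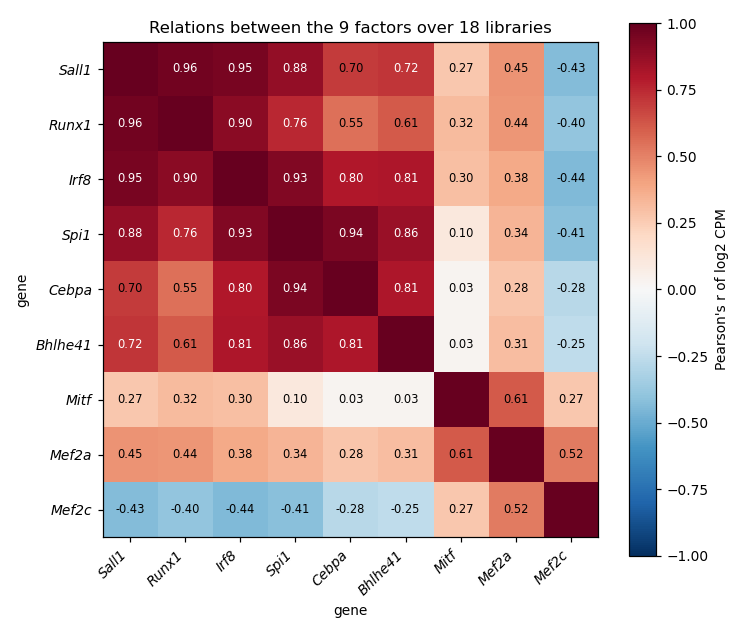
Pearson's r of log2 CPM between each pair of the 9 factors over the 18 libraries (colour and printed value). The block of Sall1, Runx1, Irf8, Spi1, Cebpa and Bhlhe41 holds only positive values, from 0.553 to 0.963, and Mef2c has r of -0.444 to -0.254 with them, none passing the test.

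Some measured properties of the libraries moved with these levels, and 36 such relations were computed (4 properties, 9 genes). The GC contrast of a library, the median log2 deviation of the most GC-rich class of genes less that of the most GC-poor of 5 classes of equal size, was between -0.43 in WT replicate 1 and 0.54 in WT replicate 7. Mef2c followed it closely (r = -0.928, rho = -0.926, adjusted permutation p 0.00036 for both, r = -0.91 without the 2 farthest libraries), and Mef2a less so (r = -0.614, rho = -0.631, adjusted permutation p 0.0417 and 0.0351, r = -0.624 without them). Both genes belong to the GC-poor class that enters the contrast (percentiles 10.6 and 15.1), so a negative r is partly built in. The permutation p therefore do not show a trait particular to them. How r was spread over the rest of that class was not computed. For the 6 factors that moved together r with GC contrast was 0.244 to 0.363, none with an adjusted permutation p under 0.05, and without the 2 farthest libraries -0.127 to 0.124. An offset for GC class, chosen after seeing the data, left all 9 uncalled. It changed the Q175 difference of Mef2c over both Tyrobp genotypes from -0.22 to -0.12 and that of Sall1 in Q175;Tyrobp-KO against Q175 from 0.60 to 0.54.

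Counts on Gm42418 and Gm26917, genes whose reads are largely those of ribosomal RNA, took 11.7% to 29.5% of a library, and r with this share was negative for all 9 factors. The relation was closest for Mef2a (r = -0.782, rho = -0.781, adjusted permutation p 0.00288 and 0.00264, r = -0.829 without the 2 farthest), and r was -0.655 for Sall1 and -0.605 for Irf8 and Runx1 (adjusted permutation p 0.0335, 0.0417 and 0.0421). For these 3 rho was -0.616, -0.62 and -0.664, and r without the 2 farthest libraries was -0.605, -0.566 and -0.557. Mef2a also rose with the summed microglia markers (r = 0.801, rho = 0.8, adjusted permutation p 0.0009 and 0.00234, r = 0.773 without the 2 farthest). For the other 8 r with that sum was 0.305 to 0.542, with adjusted permutation p of at least 0.0635, although rho had an adjusted permutation p of 0.0346 for Mef2c and 0.0416 for Cebpa (rho = 0.647 and 0.598). With the astrocyte marker sum, Mitf had r = -0.598 and rho = -0.548 (adjusted permutation p 0.0417 and 0.0595, r = -0.43 without the 2 farthest). The part of these properties in the members' levels was not tested.

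**Figure D5:**
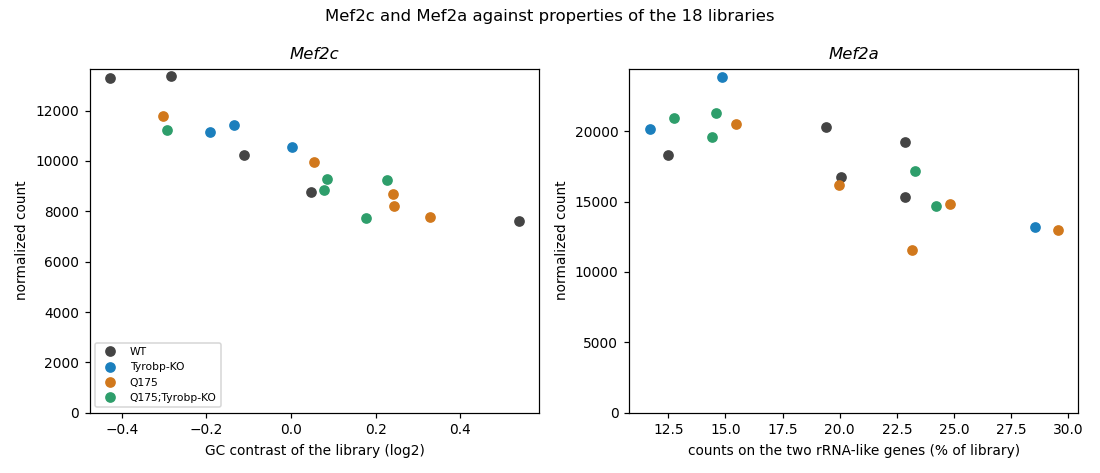
Left, normalized count of Mef2c against the GC contrast of each library (log2), which is made in part from the GC-poor class that holds Mef2c. Right, normalized count of Mef2a against the percentage of counts on Gm42418 and Gm26917. Each point is 1 of 18 libraries coloured by group, and both genes fall from left to right, with r of -0.928 and -0.782 on log2 values.

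Among 13498 other genes with at least 1 CPM in every library, genes most like each factor over the 18 libraries were named by Pearson's r. They were Vps37b (0.984) and Mob3a (0.976) for Spi1, Cyth4 (0.988) and Pik3r6 (0.98) for Irf8, and Wasf2 (0.991) and Il6ra (0.99) for Sall1. For Runx1 they were Tanc2 (0.986) and Gm15503 (0.984), for Cebpa Rhob (0.961) and Trim47 (0.951), and for Bhlhe41 Ctdnep1 (0.936) and Ier5 (0.934). For Mef2a, Gm44667 (0.944) is given, a predicted gene within Mef2a on the same strand that shares no exonic base with it. Mef2c was most like Ube2d3 (0.976) and Zfp326 (0.974). Mitf had the weakest likeness, to Tnfaip3 (0.847), a brake on NF-kB signalling, and Slc38a9 (0.84), a lysosomal amino acid sensor. The least alike genes ran from Atl2 for Sall1 (-0.932) to Gm21992 for Mitf (-0.819). Libraries were non-directional, and of the genes on the opposite strand Gm43909 shares 1280 exonic bases with Bhlhe41 but had only 14 to 42 counts, and Lysmd4 shares 302 with Mef2a and had 128 to 281.

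Relatives and partners of the 9 were read the same way. Of 32 family and partner factors, Spib, Spic, Mef2b, Runx3 and Tfec reached 1 CPM in no library. Irf5 (50.4 ± 22.0 RPKM in WT, SD, n = 5) and Fli1 (37.3 ± 12.7) were at the level of Irf8 and Mef2c, whereas Bhlhe40, the close relative of Bhlhe41, was at 2.26 ± 0.50. Irf5 was chosen after its values were seen. In Q175;Tyrobp-KO against Q175, 0 of the 26 tested were called. DESeq2 called none of the 26 and 41 of 18059 genes. An unadjusted p under 0.05 was reached by 7 of the 26 with DESeq2 (1840 of 18059 genes) and by 3 with edgeR (8.01% of all genes). Those 3 were all higher: Irf2 by 0.46 (SE 0.19), Batf3, a partner of IRF8, by 0.42 (SE 0.18) and Fli1 by 0.57 (SE 0.26), each with an adjusted p of 0.533 by edgeR. The list's median was 0.34 and that of the 9 factors 0.36, against -0.05 for all genes. Scaled to the microglia markers these were 0.10, 0.18 and -0.30, and none of the 26 had an unadjusted p under 0.05. In the other comparisons 0 of 27 were called by either tool. There edgeR gave 0 to 4 of the 27 an unadjusted p under 0.05, against 5.1% to 8.81% of all genes.

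Among 31 tested of 32 other myeloid and microglial factors, none was called by edgeR in any comparison. Egr1, an immediate early factor, had the smallest p for Tyrobp loss, with a log2 difference of -1.14 over both Htt genotypes (SE 0.29, adjusted p 0.230 by edgeR). Its normalized count was between 162.6 and 377.9 in Q175 and between 55.5 and 195.6 in Q175;Tyrobp-KO. DESeq2 called 1 of the 31 in that comparison, where it called 151 of 18613 genes. An unadjusted p under 0.05 was given to 4 of the 31 by edgeR (8.81% of all genes) and to 6 by DESeq2 (1855 of 18613 genes). Klf2 was lower in Q175 than in WT by 0.58 (SE 0.27) and Rel, an NF-kB subunit, by 0.42 (SE 0.19), with adjusted p of 0.795 and 0.796 by edgeR. They were the 2 of the 31 with an unadjusted p under 0.05 by edgeR there, against 6.24% of all genes. With sex as a term, or with the non-microglial marker score added, 0 of the 31 had one. The same held when scaled to the microglia markers, and without Q175 replicate 14. In Q175;Tyrobp-KO against Q175, edgeR gave 6 of the 31 an unadjusted p under 0.05 (5 higher and 1 lower, against 8.01% of all genes), among them Ikzf1 (0.63, SE 0.26), and DESeq2 gave 7, but neither called any. The 6 became 2 with sex as a term, with the non-microglial marker score added, or without Tyrobp-KO replicate 20 and Q175 replicate 14.

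Genes that these factors are known to drive were read in the same comparisons. Of 15 PU.1 and IRF8 target genes, all tested, edgeR called 0 in each comparison, with 1 to 3 at an unadjusted p under 0.05, and DESeq2 called 0 with 1 to 4. The most, 3 by edgeR and 4 by DESeq2, were in Q175 over both Tyrobp genotypes, all lower. There 5.1% of all genes had such a p by edgeR (3.11% lower), and 1119 of 18613 by DESeq2. Scaled to the microglia markers, 0 of the 15 had one there by edgeR. Across comparisons edgeR gave such a p to 5.1% to 8.81% of all genes. Among the 15, Cd33, a Siglec receptor, had the smallest p for Tyrobp loss, with a log2 difference of -0.55 (SE 0.17, adjusted p 0.376 by edgeR) over both Htt genotypes. It had 13295 to 18689 normalized counts in WT and 5512 to 10873 in Tyrobp-KO. In Q175 it had 7967 to 13857 and in Q175;Tyrobp-KO 6939 to 11004, so that these groups overlapped. Cd33 was also lower in Q175 than in WT by 0.48 (SE 0.20, adjusted p 0.685 by edgeR). Of 20 lysosomal targets of MITF and its relatives, 18 were tested and edgeR called 0. In each comparison 0 to 2 had an unadjusted p under 0.05, against 5.1% to 8.81% of all genes. DESeq2 called 1 for Q175 against WT, where it called 234 of 18266 genes. For Tyrobp loss over both Htt genotypes it called 1, where it called 151 of 18613 genes. Rragd, a GTPase of lysosomal nutrient sensing, was higher in Q175 than in WT by 1.64 (SE 0.44, adjusted p 0.345 by edgeR), with 175.1 to 1054 normalized counts in Q175 and 109.6 to 166.8 in WT. With sex as a term, or with the non-microglial marker score added, none of the 18 had an unadjusted p under 0.05 in this comparison, where 2 otherwise had one. By the labels 4 of 5 Q175 but 1 of 5 WT samples were from females. Gpnmb, with at most 54 counts in any library, was lower by 2.15 without Tyrobp over both Htt genotypes (SE 0.65, adjusted p 0.368 by edgeR).

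The 14 homeostatic genes, all tested, had 0 calls by either tool in every comparison. By edgeR 0 to 2 had an unadjusted p under 0.05, against 5.1% to 8.81% of all genes, and by DESeq2 0 to 4. The 4 were all lower, for Q175 over both Tyrobp genotypes, where DESeq2 gave such a p to 1119 of 18613 genes. Their median for Tyrobp loss over both Htt genotypes was 0.26 and that of the 9 factors 0.19, but scaled to the microglia markers these were -0.02 and -0.07. Disease-associated genes were the list with calls. Over both Htt genotypes, 9 of 18 fell without Tyrobp, where 0.124% of all genes were called lower, and the list's median was -1.29 against -0.02 for all genes. The study had reported Clec7a, Spp1 and other genes of this list as lower without Tyrobp in these Q175 microglia. The list's share of calls is therefore no independent test. Clec7a, a C-type lectin receptor, fell by 2.30 on the log2 scale (SE 0.30, adjusted p 0.00113 by edgeR), with 1149 to 2082 normalized counts in WT and 206.1 to 290.0 in Tyrobp-KO. In Q175 it had 450.7 to 2153 and in Q175;Tyrobp-KO 160.6 to 476.8, so that these groups overlapped. Cst7, a cystatin, fell by 2.34 (SE 0.33, adjusted p 0.00197). In Tyrobp-KO against WT 2 of the 18 fell, Spp1 and Clec7a, where 0.0222% of all genes were called lower. At an unadjusted p under 0.05, 10 of the 18 were lower and 1 higher, against 3.15% and 3.66% of all genes. DESeq2 called 9 of the 18, where it called 168 of 18017 genes. In Q175;Tyrobp-KO against Q175 edgeR called 0, with 14 at an unadjusted p under 0.05, all lower where 4.56% of all genes were. DESeq2 called 9 of the 18 there, and 41 of 18059 genes.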

How the data were processed

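Per the labels and the study's methods, striata were dissociated mechanically, cells were separated on Percoll and bound to CD11b beads, and non-directional libraries were made with SMART-Seq v4 reagents for low RNA input. The labels give 2 striata per sample and the methods 1. The authors used STAR for alignment and featureCounts for gene counts, on GRCm38 by the methods (the labels' notes name GRCh38, but all identifiers are those of mouse genes). The deposited values are raw counts without normalization, and 2 table columns that match no sample were not used. Symbols, positions and exonic lengths came from GENCODE M21 for GRCm38, with which all 55536 identifiers matched.

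Counts were fitted with edgeR 4.0.16 (R 4.3.3, TMM, quasi-likelihood test, no covariate) over genes that reached 1 CPM in 1 or more of the fitted samples, with Benjamini-Hochberg adjustment over all of them at a false discovery rate of 0.1. Pairs of groups were fitted on their own samples, and the interaction and both additive effects on all 18. Log2 CPM used a prior count of 2. Permutation tests were 2-sided with 100000 resamples. No 2 samples were copies of each other. Scripts were tested on simulated counts. Alternatives were DESeq2 1.42.0, other scalings and filters, a false discovery rate of 0.05, sex or a non-microglial marker score as a term, 1 fit over all groups and leaving out each sample. A GC class offset (50 classes) and leaving out Tyrobp-KO replicate 20 with Q175 replicate 14 were added after the data were seen.

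The genes and lists were chosen with earlier results of these data known. The text names all 9 genes, list genes among the 4 with the smallest p of a comparison, for each of the 9 the 2 most alike and the least alike gene, overlapping genes and Tyrobp; levels of other list genes, list members below 1 CPM and single markers are named as description. Some results that this rule would name are not reported here.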

Additional observations from a re-analysis of the deposited data

Results flagged for a closer look

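In Q175;Tyrobp-KO, replicate 5 stood apart from the other 4 libraries of its group for 2 factors. Irf8 was at 3728 normalized counts in it, where the next lowest library had 6187, and the gap was 0.821 of the group's range (Dixon's limit 0.71). Sall1 was at 6699, where the next lowest had 10862, a gap of 0.715 of the range. The same library had the lowest microglia marker sum of its group, 384499, and the highest astrocyte marker sum, 67663, and their part was not tested. Of 27 groups tested 2 met this rule, and chance gives about 1 in 20. Both are the same library, in 2 genes that moved together (r = 0.951). Runx1 fell just short in it, at 0.707. The 27 are not independent, so this count cannot be weighed against chance.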

How the results depend on the processing

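The 9 factors stayed uncalled under every alternative run, which were 11 settings and each library left out in turn in all 6 comparisons, and 1 fit over all groups in the 3 comparisons between pairs of groups, and the smallest adjusted p was 0.182, for Mitf under Tyrobp deletion over both Htt genotypes with counts scaled to the microglia markers (log2 -0.43). Of 1359 log2 differences of the factors under alternatives, 1236 kept their sign and 123 turned, 49 of them under settings other than leaving out 1 library. The false discovery rate of 0.05 is among these settings and changes no log2 difference, so its values could not turn. In pairs of groups, leaving out Tyrobp-KO replicate 20 with Q175 replicate 14 repeats the fit without 1 of them. None of the differences that turned had passed the test, and the cause was not tested. With 1 fit over all groups, in Tyrobp-KO against WT Sall1 was -0.0498. With DESeq2's Wald test, in Q175;Tyrobp-KO against Q175 Mef2c was 0.00435. With DESeq2 size factors in edgeR, in Q175;Tyrobp-KO against Q175 Mef2c was 0.00435. With the GC class offset, in Q175;Tyrobp-KO against Q175 Mef2c was 0.043, in Tyrobp-KO against WT Irf8 was 0.0333, in the interaction Cebpa was 0.0836, in Q175 over both Tyrobp genotypes Mitf was 0.0469. Scaled to the microglia markers, in Q175 against WT Spi1 was 0.0295 and Bhlhe41 was 0.0297, in Q175;Tyrobp-KO against Q175 Bhlhe41 was -0.0365, in Tyrobp-KO against WT Sall1 was -0.38, Mef2a was -0.27, Mef2c was -0.27 and Bhlhe41 was -0.0491, in the interaction Bhlhe41 was 0.0127, in Tyrobp deletion over both Htt genotypes Irf8 was -0.0697, Mef2a was -0.0785, Mef2c was -0.27, Runx1 was -0.11 and Bhlhe41 was -0.0419, in Q175 over both Tyrobp genotypes Spi1 was 0.10, Irf8 was 0.13, Mef2a was 0.00196, Bhlhe41 was 0.0351 and Mitf was 0.12. Without the filter, in Q175;Tyrobp-KO against Q175 Mef2c was 0.012 and Mitf was 0.00211, in the interaction Spi1 was -0.00769. With the non-microglial marker score as a term, in Q175 against WT Spi1 was 0.19, Sall1 was 0.22 and Runx1 was 0.21, in Tyrobp-KO against WT Irf8 was 0.21, in the interaction Spi1 was -0.16, in Q175 over both Tyrobp genotypes Spi1 was 0.11, Irf8 was 0.19 and Mitf was 0.0617. With sex as a term, in Tyrobp-KO against WT Sall1 was -0.0281, in the interaction Bhlhe41 was 0.0994. Scaled to total counts, in Q175;Tyrobp-KO against Q175 Mef2c was 0.13 and Mitf was 0.12, in the interaction Mef2c was 0.0355 and Bhlhe41 was 0.0643, in Q175 over both Tyrobp genotypes Sall1 was -0.00744. Without Tyrobp-KO replicate 20 and Q175 replicate 14 together, in Q175 against WT Spi1 was 0.0135, in Tyrobp-KO against WT Irf8 was 0.20, in the interaction Spi1 was -0.30 and Mef2a was -0.15, in Q175 over both Tyrobp genotypes Sall1 was -0.0459 and Runx1 was -0.00955. 

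Without 1 library at a time the ranges that crossed 0 were as follows. For Q175 against WT they were Spi1 -0.23 to 0.17, Irf8 -0.39 to 0.00463, Sall1 -0.43 to 0.0437, Cebpa -0.35 to 0.0825 and Bhlhe41 -0.24 to 0.11. For Q175;Tyrobp-KO against Q175 they were Mef2c -0.0834 to 0.0947 and Mitf -0.0702 to 0.0472. For Tyrobp-KO against WT they were Irf8 -0.23 to 0.20, Sall1 -0.20 to 0.32, Mef2a -0.0479 to 0.36 and Runx1 -0.44 to 0.00167. For the interaction they were Spi1 -0.19 to 0.25, Mef2a -0.0259 to 0.41, Mef2c -0.15 to 0.0465, Cebpa -0.40 to 0.14 and Bhlhe41 -0.25 to 0.12. For Tyrobp deletion over both Htt genotypes they were Mef2c -0.023 to 0.0799. For Q175 over both Tyrobp genotypes they were Spi1 -0.15 to 0.0818, Irf8 -0.15 to 0.12, Sall1 -0.12 to 0.20 and Runx1 -0.0915 to 0.18. 

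The number of genes called moved more. DESeq2 called 234 for Q175 against WT, 41 for Q175;Tyrobp-KO against Q175, 168 for Tyrobp-KO against WT, 2 for the interaction, 151 for Tyrobp deletion and 1 for Q175 over both genotypes of the other locus. For Q175;Tyrobp-KO against Q175, 1 gene was called at a false discovery rate of 0.05, with sex, with the marker score or without the 2 libraries, 9 without the filter, 14 with 1 fit, and 1 to 5 without 1 library (5 without Q175 replicate 9). For Tyrobp-KO against WT it was 2 with the marker score, 15 without the filter, 8 with 1 fit, and 2 to 8 without 1 library (2 without Tyrobp-KO replicate 15 or 19, 8 without WT replicate 6). For Tyrobp deletion it was 62 scaled to the microglia markers and 24 to 64 without 1 library (64 without Q175 replicate 17). Of the disease-associated genes, DESeq2 called 9 in Q175;Tyrobp-KO against Q175 and 9 in Tyrobp-KO against WT. In the former, 3 were called without the filter, 5 with 1 fit and 0 to 1 without 1 library (1 without Q175 replicate 9). In the latter, 5 were called without the filter, 1 with sex, 1 with the marker score and 1 to 5 without 1 library (1 without Tyrobp-KO replicate 15 or 19, 5 without WT replicate 6). DESeq2 called 1 lysosomal target in Q175 against WT and 1 under Tyrobp deletion. Under Tyrobp deletion 1 other myeloid factor was called by DESeq2, with the marker score or without the 2 libraries, and 0 to 1 without 1 library (1 without Tyrobp-KO replicate 20), and 1 PU.1 or IRF8 target was called with the marker score or scaled to the microglia markers. No paired analysis was possible because the groups have no replicate numbers in common. With 3 Tyrobp-KO libraries and within-group SDs up to 0.66, the intervals for Sall1, Irf8, Runx1, Spi1 and Cebpa in Tyrobp-KO against WT spanned more than 1.5 log2 units, which limits what could be detected.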
